A study of Homo sapiens with 4 samples.

Results

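The regions described here are stretches of the human genome that gave a STARR-seq peak under every treatment tested and that overlap no annotated gene. Members were chosen by peak calls. Peaks of the 4 lists on chromosomes 1 to 22 and X were merged wherever they shared 1 bp, and a merged region was kept if it held a peak in all 4 lists, overlapped no RefSeq gene of any biotype and lay outside 10 windows set around repeat-rich stretches of chromosomes 1, 2, 5, 7, 10, 16, 17, 20, 21 and 22. The rule found 1450 regions, which is 31.6% of the 4584 regions with a peak in all 4 lists and 0.649% of the 223513 merged regions. Of the other 4-list regions, 1502 overlapped a gene outside the windows, 1612 were intergenic inside the windows and 20 overlapped a gene inside them.

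The cells were MDA-MB-231, an established human breast cancer cell line of triple-negative, mesenchymal type, transfected with a plasmid library made from fragmented DNA of the same line. The 4 groups received DMSO as the vehicle control, SHP1705 at 10 µM, MG132 at 100 nM, or SHP1705 at 10 µM together with MG132 at 100 nM, and RNA was taken at 8 h. SHP1705 stabilises the cryptochrome (CRY) repressors of the circadian clock, and MG132 inhibits the proteasome, the protease complex that degrades ubiquitin-tagged proteins. Each treatment had 1 library and 1 peak list, so there is no spread between replicates, no p-value is given, and a difference between treatments cannot be told apart from a difference between libraries. The lists hold reporter signal and no endogenous gene expression, so the cell line label was not checked against marker genes.

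In STARR-seq a genomic fragment sits inside the transcribed part of a reporter plasmid, so an active fragment drives a transcript that carries its own sequence, and the reporter RNA is sequenced. Intergenic enhancers lie between genes and can act over distance, while human centromeres, which also hold few genes, consist of alpha satellite, short units repeated in tandem and grouped into repeated blocks that can span kilobases. In the hg38 build the centromeres are filled with sequence models of these arrays, and a short read from a repeat can have many equally good placements. How the authors placed such reads is not given in the sources used here.

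Depth was uneven. The peak caller counted 29717604 fragments in the DMSO library and 118324303 in that of SHP1705, against 27289266 with MG132 and 28331486 with both drugs. Peak height below is the tallest summit pileup, the number of fragments covering the summit, and between libraries it is given per 1000000 fragments. Where 4 values of a region or group follow each other, they stand in the order DMSO, SHP1705, MG132, combination. Intervals on a ratio of heights are exact (Clopper-Pearson) at 95% and cover counting error only, because duplicate fragments were kept and are not independent molecules.

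Most of the members did not lie between neighbouring genes but deep inside a few very long stretches without any annotated gene. In the RefSeq annotation 27 gene-free intervals reached 2 Mb, a limit chosen after the positions were seen; the next longest measured 1.28 Mb and the shortest kept 2.02 Mb. Of the 27, 13 touched a window of the rule, 13 held members, and 1 outside the windows, on chromosome 14, held none. The 13 with members held 1344 of the 1450 regions (92.7%) and lie at the known centromere positions of chromosomes 3, 4, 6, 8, 9, 11, 12, 13, 14, 15, 18, 19 and X. The label "intergenic" therefore holds by the rule, but the larger share of the regions is pericentromeric or centromeric by position. Satellite content itself was not measured, since no genome sequence was used.

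**Figure D1:**
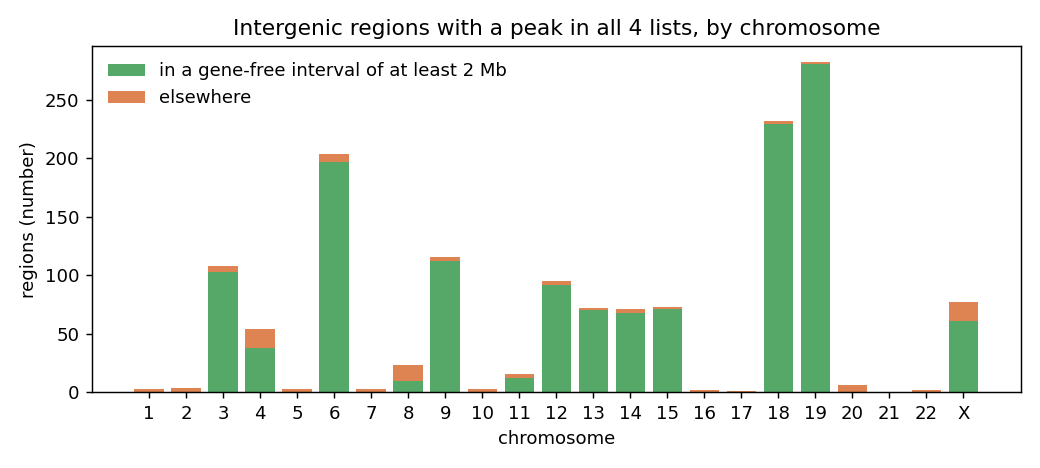
Number of member regions per chromosome (x axis), split into those inside a gene-free interval of at least 2 Mb (green) and those elsewhere (orange). Chromosomes 19, 18 and 6 held the most members, with 282, 232 and 204 regions, nearly all inside a long gene-free interval, and chromosome 21 held none.

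The interval of chromosome 19 (24179012 to 27681071) held 281 members, the interval of chromosome 18 (15330264 to 20946905) held 229 and that of chromosome 6 (58121086 to 60281437) held 197. The intervals of chromosomes 9, 3 and 12 held 112, 103 and 92. Those of chromosomes 15, 13, 14 and X held 71, 70, 68 and 61, and those of chromosomes 4, 11 and 8 held 38, 12 and 10. Counted from the first to the last member of an interval, the density ran from 4.10 members per Mb on chromosome 11 to 111 on chromosome 6 and 123 on chromosome 19. On chromosomes 6 and 19 the members covered 13.6% and 14.2% of that span.

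The long intervals held many other peaks as well. Of 10577 merged regions in long gene-free intervals outside the windows, 1344 (12.7%) had a peak in all 4 lists, against 1608 of 200580 merged regions (0.802%) in the rest of the genome outside the windows. The share differed widely between chromosomes. On chromosome 6 38.9% of the merged regions in the interval were in all 4 lists and on chromosome 19 24.3%, whereas on chromosome 11 1.28% and on chromosome 8 2.18% were.

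The remaining 106 members were spread over 22 chromosomes, with 16 each on chromosomes 4 and X and 13 on chromosome 8. Of these, 17 lay within 2 Mb of a long gene-free interval. The median distance to the nearest gene of any biotype was 886990 bp over all members and 19872.5 bp over the 106. Only 40 members lay within 10 kb of a gene and 1342 lay more than 100 kb from one. The median distance to a protein-coding gene was 1409120 bp. The 5 members farthest from a coding gene, at 2939473 to 3263455 bp, lay on chromosomes 13, 15 and 18, the farthest at chr15:17031062-17032198 in the interval of chromosome 15. Its summit pileup was 81, 399, 21 and 325.

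At the edge of the rule, the member closest to a gene was chr2:70148178-70149625, 260 bp from C2orf42, with pileups of 233, 245, 91 and 164. Just outside it, regions of all 4 lists that overlapped a gene by the fewest bases were chr12:125055908-125056566, with 207 bp in the pseudogene TOMM6P1, and chr4:188159348-188160284, with 232 bp in the noncoding RNA gene LINC02434. The pileups of the TOMM6P1 region were 50, 4740, 42 and 369 in the same order, and those of the LINC02434 region 17321, 1295, 1284 and 723. At the limit of the peak call, a −log10 q of 2, the weakest member was chr5:82871887-82872738, 180108 bp from TMEM167A, whose lowest −log10 q was 2.38 in pileups of 13, 69, 27 and 72. The next 4, in the intervals of chromosomes 6, 14 and X, had lowest −log10 q values of 2.60, 2.64, 3.01 and 3.01.

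Member regions were 391 to 3638 bp wide, with a median of 955 bp, and 1311 of them held a single peak in every list. A shared region did not always mean a shared summit. The tallest summits of the 4 lists lay within 100 bp of each other in 561 members (38.7%), beside 40.7% of all regions in 4 lists and 44.6% of the genic ones, and the median distance between the outermost summits was 161.5 bp. With the SHP1705 list left out, 886 of 1987 intergenic regions shared by the other 3 lists had summits within 100 bp. The order of the members by height was partly shared between libraries, with Spearman coefficients of 0.66 (DMSO and SHP1705) to 0.76 (MG132 and the combination) across the 1450 regions, which are not independent of each other.

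The members stood low in the SHP1705 library and about equally high in the other 3. The median height per 1000000 fragments was 11.5 in DMSO and 1.26 in SHP1705, and with MG132 it was 12.1 alone and 11.6 in the combination. In pileup, without scaling for depth, the medians were 341, 149, 330 and 327.5, so the SHP1705 library was lower although it was the most deeply sequenced. SHP1705 was the lowest of the 4 libraries in 1429 of 1450 members (98.6%) per 1000000 fragments and in 1132 (78.1%) by unscaled pileup. In the genic regions of all 4 lists the order was the opposite: the medians were 1.95, 52.4, 2.13 and 1.76 per 1000000 fragments, and SHP1705 was the highest in 1409 of 1502 (93.8%). The intergenic regions inside the windows, which the rule left out, resembled the members, with medians of 19.7, 1.82, 20.1 and 17.7.

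**Figure D2:**
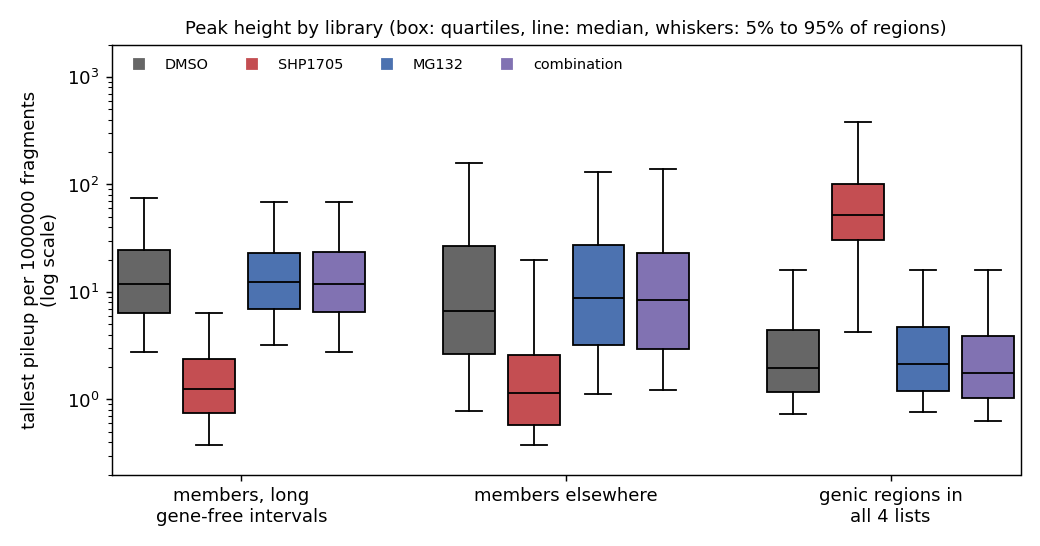
Tallest summit pileup per 1000000 fragments (y axis, log scale) in the 4 libraries for members in long gene-free intervals, members elsewhere and genic regions in all 4 lists. Boxes span the quartiles over regions, lines mark medians and whiskers run from 5% to 95% of regions; SHP1705 is the lowest box in both member groups (medians 1.26 and 1.16) and the highest in genic regions (52.4).

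Relative to DMSO, the median log2 ratio of SHP1705 height over the members was -3.15, with quartiles of -3.83 and -2.54, a height 8.86 times lower. At least 2-fold lower in SHP1705 were 1402 of 1450 members (96.7%), beside 69.9% of the 8597 regions with a peak in both lists. At least 2-fold higher were 5 members (0.345%), beside 24.6% of those regions. In the genic regions of all 4 lists the median was 4.89, and 1408 of 1502 were at least 2-fold higher. The counts depend on the scaling: centring the ratios on their median over all regions in 4 lists, a shift of -2.71, left 408 members lower and 121 higher. Of the 4584 regions that set this shift 3062 were intergenic, and it lies between the members' own quartiles. Centring thus takes away most of the members' difference by construction and is no independent check of the scaling. Whether the heights of the genic regions take part in the low values per 1000000 fragments of the members was not tested.

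**Figure D3:**
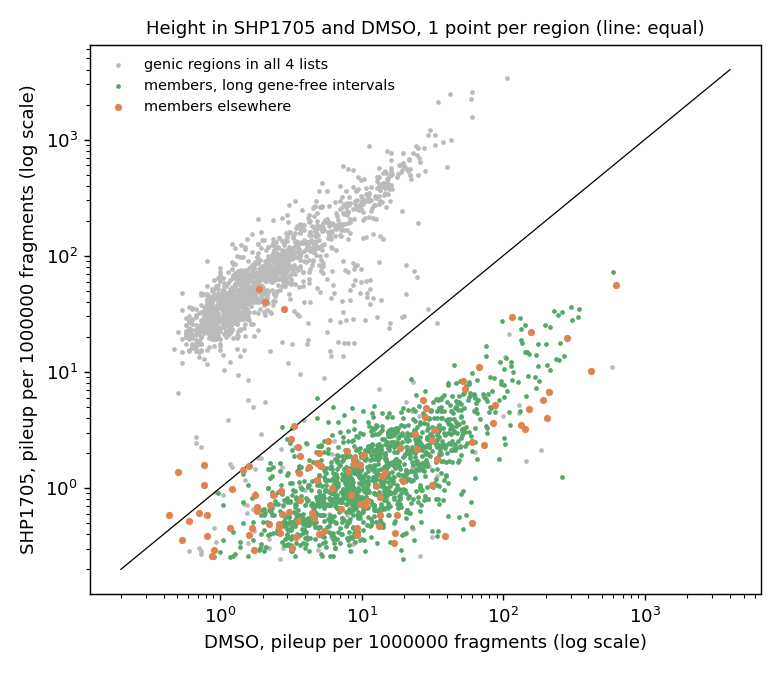
Height per 1000000 fragments in SHP1705 (y axis) against DMSO (x axis), both on log scales, with 1 point per region and a line of equal height. Members in long gene-free intervals (green) lie below the line in all but 3 of 1344 regions, genic regions (grey) mostly above it, and members elsewhere (orange) are mostly below, with 5 of 106 at least 2-fold above DMSO.

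The low SHP1705 heights were seen in each of the 13 intervals. The median log2 ratio to DMSO ran from -1.92 on chromosome 11 (12 members) to -3.56 on chromosome 9 (112 members). All 281 members in the interval of chromosome 19 and all 197 in that of chromosome 6 were at least 2-fold lower, and no member of a long interval was at least 2-fold higher. Among the 106 members elsewhere the median was -2.62, with 88 lower and 5 higher. In the combination library, which also received SHP1705, the members were not low. Its height was at least 2-fold above that of SHP1705 alone in 1417 members, beside 72.2% of regions with a peak in both lists, and at least 2-fold below in 5, beside 22%. The median log2 ratio of the combination to SHP1705 was 3.17, and centring on all regions in 4 lists, a shift of 2.74, left 360 higher and 116 lower. That shift, too, lies between the members' quartiles, here 2.60 and 3.73, so it takes away most of their difference by construction.

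The 5 members at least 2-fold higher in SHP1705 than in DMSO all lay outside the long intervals. The region chr7:149321571-149322098, 36577 bp from the zinc finger gene ZNF783, had pileups of 56, 6126, 136 and 53. Per 1000000 fragments SHP1705 was 27.5 times DMSO (95% interval 21.1 to 36.4). The region chr2:44065610-44066138, 69345 bp from LRPPRC, a gene for a mitochondrial RNA-binding protein, had pileups of 62, 4694, 57 and 37, a log2 ratio of 4.25 (95% interval of the ratio 14.8 to 24.8). The region chr1:68389100-68391885, 36937 bp from the retinoid isomerase gene RPE65, had pileups of 84, 4097, 81 and 54, a ratio of 12.2 (9.87 to 15.4). These 3 regions were high in SHP1705 alone and near the DMSO level in the combination, the pattern of most genic regions. Smaller differences were found at chr19:44562453-44563298 near CEACAM20, with pileups of 15, 162, 165 and 69, and at chr3:94837957-94838572, 706125 bp from NSUN3, with 23, 187, 42 and 26.

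At the other end, the region with the smallest SHP1705 to DMSO ratio was chr11:53775970-53776811, in the interval of chromosome 11 and 826258 bp from the olfactory receptor gene OR4C46. Its pileups were 7743, 148, 3048 and 1065, so that SHP1705 was 208 times lower (177 to 247). It was followed by chr11:135040072-135041903, 627830 bp from B3GAT1, a glucuronyltransferase gene, with pileups of 1798, 59, 196 and 313. The third, chr13:17948553-17949569, 1224203 bp from the tubulin gene TUBA3C, had 1558, 53, 226 and 131. In these 3 regions DMSO was the highest of the 4 libraries and MG132 and the combination were also below it.

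On balance the members stood about as high in MG132 and in the combination as in DMSO. The median log2 ratio of MG132 to DMSO was 0.12 (quartiles -0.51 and 0.66), and 72.1% of members were within 2-fold. At least 2-fold higher in MG132 were 228 members (15.7%), beside 13.4% of the 8873 regions with a peak in both lists, and 176 (12.1%) were at least 2-fold lower, beside 16.4%. For the combination against DMSO the median was 0.00 (quartiles -0.58 and 0.54), with 201 members higher (13.9%, beside 13.1%) and 194 lower (13.4%, beside 15.8%). Between the combination and MG132 the median was -0.09, with 133 higher (9.17%, beside 15.3%) and 208 lower (14.3%, beside 13.6%). Against DMSO these shares lie near the background of regions with a peak in both lists, and the share higher in the combination than in MG132 lies below it. Over the 4584 regions in all 4 lists, members included, 11.9% were higher and 9.62% lower in MG132 than in DMSO. The combination was higher than DMSO in 10.6% and lower in 11.5% of them, and higher than MG132 in 7.59% and lower in 11.5%. Each member share lies above the share over these regions. With 1 library per treatment no member can be called changed. Among the 1987 intergenic regions that the lists other than SHP1705 share, 324 (16.3%) were higher and 287 (14.4%) lower in MG132 than in DMSO. The combination was higher than DMSO in 295 (14.85%) and lower in 314 (15.8%). Against MG132 it was higher in 236 (11.9%) and lower in 315 (15.85%).

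**Figure D4:**
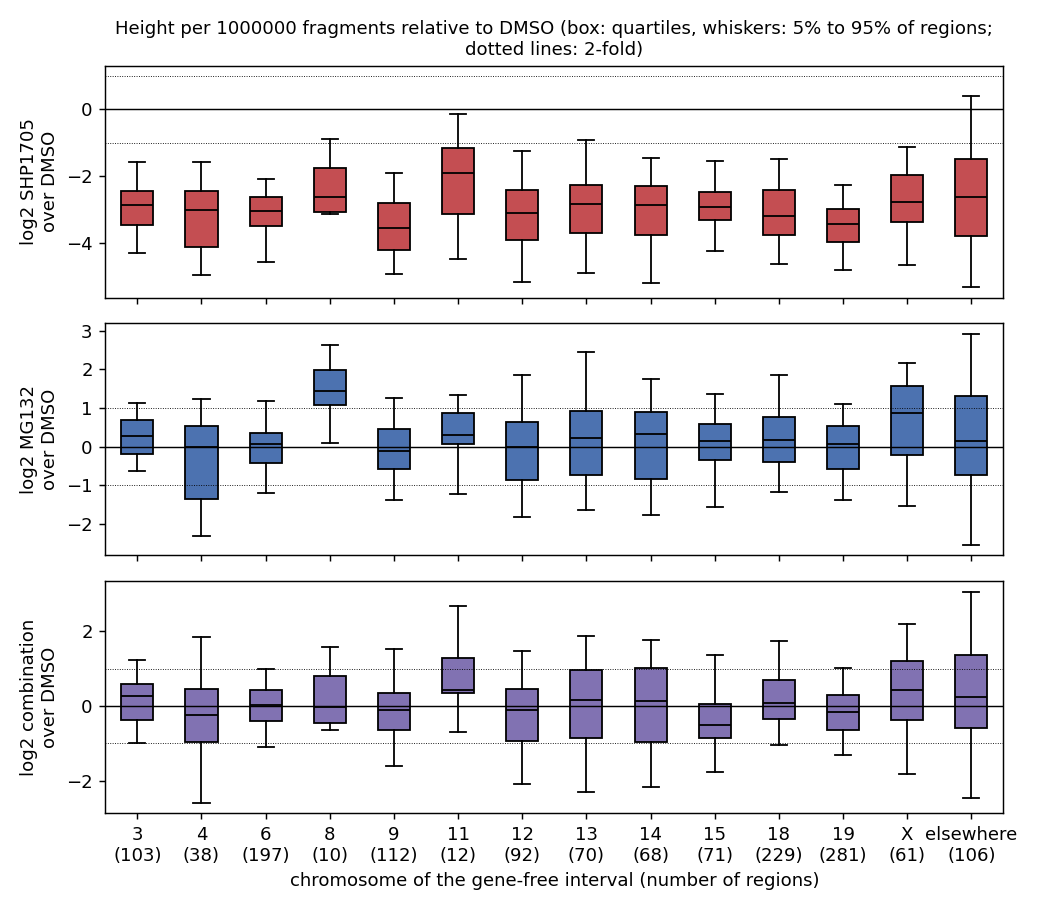
Log2 ratio of height per 1000000 fragments to DMSO for SHP1705, MG132 and the combination (rows, y axis), by chromosome of the gene-free interval and for members elsewhere (x axis, number of regions in brackets). Boxes span quartiles, whiskers 5% to 95% of regions and dotted lines mark 2-fold; SHP1705 medians are below -1.9 in every group, while MG132 medians stay near 0 apart from chromosomes 8 (1.44) and X (0.87).

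By interval, the MG132 to DMSO median lay between -0.11 and 0.32 in 11 of the 13. It was 0.87 on chromosome X, where 27 of 61 members were at least 2-fold higher and 7 lower, and 1.44 on chromosome 8, where 8 of 10 were higher and none lower. Over all regions with a peak in both lists 13.4% were higher and 16.4% lower. Members there were low, with median DMSO pileups of 148 on chromosome X and 90 on chromosome 8, the lowest of the 13. Chromosome 11, also low at 102, had an MG132 to DMSO median of 0.30. In the combination the chromosome 8 interval was near the DMSO level, with a median of -0.03 against DMSO and -1.71 against MG132. The chromosome X interval had a median of 0.43 against DMSO. The lowest combination to DMSO median, -0.51, was that of chromosome 15 (71 members), and the highest, 0.44, that of chromosome 11 (12 members).

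A second stretch of chromosome 8, chosen after its values were seen, holds copies of REXO1L, a family of RNA exonuclease-like sequences in a tandem array; the table annotates 11 on this chromosome, all as pseudogenes. Of 7 members between positions 85644058 and 85817315, 6 lie 344 to 543 bp from a copy. The log2 ratio of MG132 to DMSO of these 6 ran from 0.91 to 1.78, and 5 of 6 were at least 2-fold higher. In the combination the ratio to DMSO ran from 0.05 to 0.70 and none of the 6 reached 2-fold. In SHP1705 all 6 were at least 2-fold lower than in DMSO per 1000000 fragments. Against DMSO, 13.4% of all regions with a peak in both lists were higher in MG132 and 13.1% in the combination. Among the 106 members outside the long gene-free intervals, these 6 included, 34.9% were higher in MG132 and 27.4% in the combination. Lower in SHP1705 were 69.9% of regions with both peaks and 96.7% of all members. The other member of the stretch, chr8:85783518-85785327, lies 4998 bp from LOC124902048 and was not higher in MG132, with pileups of 78, 55, 47 and 82 and a log2 ratio of -0.61 to DMSO. The tallest of the 6, chr8:85644058-85644823, had pileups of 3405, 3505, 5892 and 5271. The copies share sequence, so the 6 regions are not independent measurements.

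Among the members, the libraries other than SHP1705 differed from each other more at low regions than at tall ones. DMSO, MG132 and the combination lay within 2-fold of each other in 785 of 1450 members (54.1%), beside 79.5% of the genic and 57.8% of the windows' intergenic regions. Split into 4 equal groups by mean height, the median ratio of the highest to the lowest of these 3 libraries was 2.26 in the lowest group, then 1.86, 1.83 and 1.72 in the highest. The 106 members elsewhere were less even, with 29 (27.4%) within 2-fold and a median ratio of 3.22. One library stood at least 4-fold above each of the others in 57 members (3.93%): DMSO in 22, MG132 in 18, the combination in 14 and SHP1705 in 3. The share was 2.61% in the intergenic regions inside the windows and 90.8% in the genic regions, where SHP1705 led 1351 of 1364. Of these 57, 22 were among the 106 elsewhere.

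The tallest members, ranked by the lowest of their 4 heights, lay both in the long intervals and elsewhere. The first was chr18:20938304-20940176, 6730 bp from ROCK1 at the edge of the chromosome 18 interval. Its pileups were 17732, 8553, 13047 and 11856, with summits no more than 15 bp apart. The second, chr1:236096782-236097761, lies 31692 bp from NID1, which encodes nidogen, a basement membrane protein. Its pileups were 18597, 6673, 10902 and 9049, so DMSO was the highest library and SHP1705 the lowest.

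The third, chr3:93470348-93470813, lies in the chromosome 3 interval, 402238 bp from PROS1, which encodes the anticoagulant protein S, with pileups of 8923, 4293, 5839 and 7573. The others of the first 10 were 3 regions on chromosome 12 nearest to ALG10B, a glucosyltransferase gene of the N-glycan pathway, 2 on chromosome 19 nearest to UQCRFS1, the Rieske subunit gene of respiratory complex III, 1 on chromosome 15 and the REXO1L region described above. In all 10, SHP1705 was the lowest library per 1000000 fragments, by 3.87 times against DMSO in the REXO1L region up to 11.2 times at chr19:27120064-27121257. MG132 was 1.94 times DMSO at most and the combination 1.62 times at most.

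By the authors' fold over local background, the 5 members with the highest value in their weakest list were the REXO1L, PROS1 and NID1 regions above (24.5, 24.5 and 23.6), chrX:59146467-59147073 nearest to ZXDA (22.1) and chr3:90582577-90583163 nearest to EPHA3 (21.8). With a background taken over 10000 bp, such folds mark piles of fragments that stand alone. The ZXDA region, in the chromosome X interval, was of modest height, with pileups of 381, 406, 419 and 281. The EPHA3 region had 4705, 2603, 3166 and 3454.

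Many of the members with the most uneven heights were low in 3 libraries and high in 1. For MG132 over DMSO the largest ratio was at chr11:101375103-101376353, 75211 bp from the cation channel gene TRPC6, with pileups of 35, 54, 562 and 148. That is 17.5 times DMSO (12.4 to 25.4). A region on chromosome 8 nearest to the RNA-binding protein gene RALYL (chr8:83268061-83268758) had 54, 82, 862 and 197, and chr20:21292453-21293345, 9986 bp from the exoribonuclease gene XRN2, had 50, 54, 587 and 121. In all 3 the combination was above DMSO but below MG132.

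The smallest MG132 to DMSO ratio was at chr15:19654085-19655046, in the chromosome 15 interval, with pileups of 1715, 358, 85 and 84. There DMSO was far above MG132 and the combination, which were nearly equal. It was followed by chrX:73381808-73382313, 64740 bp from the homeobox gene CDX4, with 393, 56, 29 and 79, and by chrX:61996330-61996972, in the chromosome X interval nearest to SPIN4, with 452, 81, 36 and 108. In the CDX4 and SPIN4 regions DMSO was the highest library and MG132 had the lowest unscaled pileup. Scaled for depth, SHP1705 was the lowest library in both, at 0.473 and 0.685 against 1.06 and 1.32 in MG132.

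For the combination over DMSO the largest ratio of all members was at chrX:62511092-62511968, 835260 bp from SPIN4, with pileups of 16, 43, 67 and 1107, or 72.6 times DMSO (44.5 to 127). The region chr4:1434456-1435623, 28014 bp from the homeobox gene NKX1-1, had 53, 103, 102 and 1109, and chr2:34494672-34495352, 895373 bp from FAM98A, had 16, 42, 81 and 333. In all 3 the combination was the highest library and neither drug alone reached its height. The smallest ratios were at chrX:20366146-20366873, 99049 bp from the kinase gene RPS6KA3 (1152, 46, 148 and 49), again at the chromosome 15 region above, and at chr6:370772-372388, 19364 bp from IRF4, a transcription factor gene of lymphocytes (1018, 209, 172 and 59). Here DMSO was the highest.

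Between the combination and MG132 the largest ratios were at chr18:18206109-18207346 in the chromosome 18 interval (171, 64, 70 and 1355), chr4:51117907-51118986 nearest to DCUN1D4 (226, 135, 62 and 1221) and chr9:75816464-75817198 nearest to the proprotein convertase gene PCSK5 (81, 71, 27 and 465). The smallest were at chr1:73430216-73430776 nearest to LRRIQ3 (23, 125, 245 and 19), chr9:43531745-43533148 in the chromosome 9 interval (556, 87, 843 and 83) and chr13:17280974-17281395 nearest to TUBA3C (67, 195, 488 and 55). The first set was high in the combination alone. In the second set MG132 was the highest library and the combination had the lowest unscaled pileup. Scaled for depth, the combination was the lowest library only in the LRRIQ3 region, at 0.671. SHP1705 was the lowest in the chromosome 9 region, at 0.735 against 2.93 in the combination. It was also the lowest in the TUBA3C region, at 1.65 against 1.94 in the combination. For the combination over SHP1705 the 3 largest ratios were at 2 regions already given, those with 1107 and 1355 in the combination, and at chr18:18395412-18396063 (168, 37, 101 and 929).

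Other groups of neighbouring members, also chosen after their values were seen, lay beside the chromosome 4 and 20 centromere positions. On chromosome 4, 11 members between 49091397 and 49330780 were nearest to CWH43, a gene of lipid remodelling on GPI anchors. Of these 10 were at least 2-fold lower in SHP1705 than in DMSO, 4 were at least 2-fold higher in MG132, and in the combination 5 were higher and 1 lower. The shares over all regions with a peak in both lists were 69.9% lower in SHP1705, 13.4% higher in MG132, and 13.1% higher and 15.8% lower in the combination. Among the 106 members outside the long gene-free intervals, these 11 included, 83.0% were lower in SHP1705 and 34.9% higher in MG132. In the combination 27.4% of the 106 were higher and 20.8% lower. The tallest of the 11, chr4:49148382-49150162, had pileups of 1991, 1303, 7274 and 6418. On chromosome 20, 5 members between 31051871 and 31242206 were nearest to the defensin gene DEFB115. Of these, 4 were at least 2-fold lower in SHP1705 than in DMSO, again beside 69.9% and, among the 106 members, 83.0%. On chromosome 22, both members lay side by side, 388622 and 384498 bp from BRD1; the larger, chr22:49385804-49388780, had pileups of 12320, 1211, 12412 and 3783.

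Few members lay near a coding gene. Among the 106 elsewhere, 41 lay within 50 kb of one and 10 within 10 kb, the latter nearest to C2orf42, GRB10, NCOA2, LOC124902048, CD300LB, MEP1B, XRN2, TEX13C, CT45A1 and CT45A3. The CD300LB region, chr17:74513681-74515316, near a gene for a myeloid cell surface receptor, was the tallest of these, with pileups of 1795, 292, 501 and 472. The regions beside CT45A1 and CT45A3, copies of a cancer/testis antigen gene, each lay 2098 bp from a pseudogene copy of MGAT2 and were both 619 bp wide. Their pileups were 26, 31, 52 and 215 in the first and 149, 48, 65 and 217 in the second, so the combination was highest in both. How reads of such copies were placed is not given in the sources used here.

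Of the 161 genes on lists fitting the drugs and the cell line, 1 (0.621%) was nearest to a member, a share near that of all coding genes. This was 1 of the 23 AP-1 and immediate early genes (4.35%), KLF4, a zinc finger transcription factor gene, and none of the 21 clock genes, 25 heat shock and chaperone genes, 22 NF-kB and inflammatory genes, 24 mesenchymal and basal breast genes, 22 luminal breast genes or 24 interferon response genes was nearest to one. Over all 19970 coding genes, 104 (0.521%) were nearest to a member. The KLF4 region, chr9:107827134-107827853, is 337365 bp from the gene and had pileups of 400, 99, 47 and 169, with DMSO the highest.

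In the chromosome 6 interval the distances between members lay mostly near whole multiples of a common spacing. A scan of spacings from 1000 to 6000 bp, added after the positions were seen, gave the spacing that best divides the distances between the tallest summits of members up to 20 kb apart. It returned 3061, 3059, 3064 and 3065 bp, a range of 6 bp over the 4 lists. The alignment, which is 1 when all distances are whole multiples of the spacing and near 0 when they are not in step, was 0.63, 0.54, 0.62 and 0.53. As the best spacing is picked from the scan, some alignment above 0 arises by construction. Of 554, 554, 554 and 555 pairs, 88.8%, 85.0%, 90.4% and 86.5% lay within 0.25 of the spacing from a whole multiple, where 50% would do so if distances were spread evenly. Because the regions are merged across lists, the 4 scans share their regions and are not independent. The median gap between neighbouring members there was 4.59 kb, more than 1 spacing, so members did not fill every step.

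**Figure D5:**
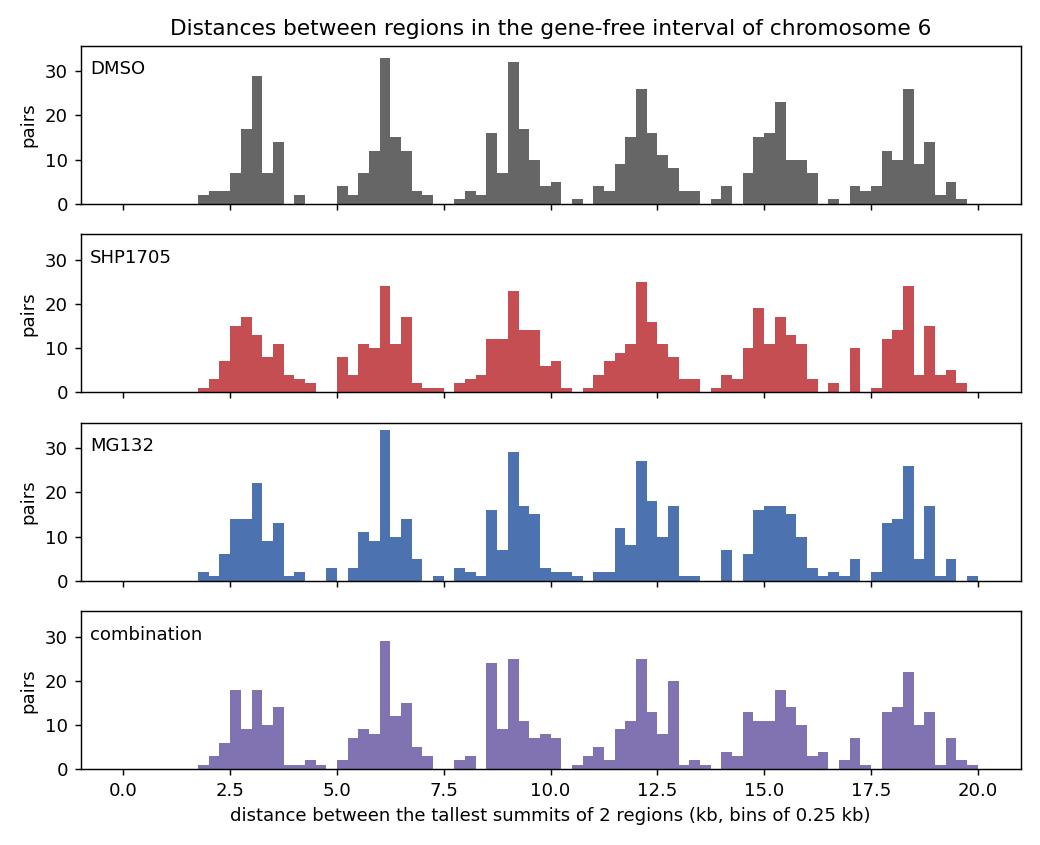
Number of pairs (y axis) by distance between the tallest summits of 2 members in the chromosome 6 interval (x axis, kb, bins of 0.25 kb), for the 4 lists. Pairs pile up near whole multiples of about 3.06 kb in every list and are few in between.

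Peaks in the same interval that were not in all 4 lists gave best spacings of 3084, 3087, 3061 and 3063 bp, with lower alignments of 0.18, 0.26, 0.22 and 0.38. Of the other 10 intervals with at least 30 members, none gave a spacing that was as close between the lists: the spread of the 4 best spacings ran from 28 to 3658 bp. In the 8 of these with at least 40 pairs the alignment was 0.05 to 0.41. On chromosome 18 the 4 lists gave 1890 to 1918 bp at alignments of 0.10 to 0.20. On chromosome 15 DMSO, SHP1705 and MG132 gave 2383, 2372 and 2385 bp at alignments of 0.24, 0.23 and 0.31. The combination gave 1167 bp there, at 0.26. On chromosome 19, the densest interval, alignments were at most 0.09. Chromosomes 4 and X had too few pairs, 8 to 18, for their alignments to be read.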

How the data were processed

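Reporter RNA of 4 STARR-seq libraries was sequenced, 1 per treatment. The submitters' processing notes name MACS2, Bowtie2, FastQC and Trimmomatic, and the build hg38. Per the file headers, the authors ran MACS 2.2.6 on 1 library at a time with a q limit of 0.01, keeping duplicates, without a control library and with a local background over 10000 bp. The caller's fragment size, 299 bp for SHP1705 and 346 to 355 bp for the others, sets the minimum peak width. The signal used is the pileup at a summit, as deposited by the authors and not scaled for depth. The fold of a peak is its ratio to the local background, and the −log10 q is the caller's, both as deposited by the authors.

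Python 3.11.15, pandas 2.3.3, numpy 2.4.6 and scipy 1.17.1 were used. Peaks were merged at 1 bp overlap. The tallest pileup of a region in each list was divided by that list's fragments and multiplied by 1000000, and a region was counted higher or lower at a 2-fold difference. The percentage called was taken over all regions with a peak in both lists. Genes came from RefSeq GRCh38.p14, on the coordinates of hg38. No genome sequence was used, so planned sequence features were not analysed here. The merging, counting, ratio and spacing steps were tested on simulated data. The members and gene lists were chosen with earlier results of these data known. Named regions are the 10 with the highest minimum height, the 5 with the highest minimum fold, the 3 largest and 3 smallest ratios of each of 5 library comparisons, the 5 farthest from a coding gene and the 5 with the lowest −log10 q; a region chosen after its values were seen is given as such. Tried alternatives were other overlap, summit, fold and −log10 q limits, lists of equal length, centring, the windows kept in, and leaving out SHP1705.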

Additional observations from a re-analysis of the deposited data

Results flagged for a closer look

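Among the regions described, 13 had opposite directions of the SHP1705 effect without and with MG132 (SHP1705 against DMSO, and the combination against MG132), each by at least 2-fold. Over all members 122 of 1450 (8.41%) did so, 120 of them lower without MG132 and higher with it. The share in either direction was 6.86% of the genic regions in all 4 lists and 7.69% of the intergenic regions inside the windows. Of the 103 genic regions, 15 were lower without MG132 and higher with it, and 88 went the other way. Inside the windows 122 of 124 had the direction of most members. As 96.7% of the members were lower in SHP1705 than in DMSO, nearly any member with a higher combination than MG132 shows opposite directions. Each region rests on 1 library per treatment, so the difference was not tested. In the region near ZNF783 at chr7:149321571 the log2 effect was 4.78 without MG132 and -1.41 with it, a difference of -6.19. Near CEACAM20 it was 1.44 and -1.31, a difference of -2.75. In the other 11 it was negative without MG132 and positive with it. The difference was 6.20 near CDX4, 6.005 near SPIN4 at chrX:61996330, 3.38 near SPIN4 at chrX:61448570, 4.42 near NKX1-1, 6.98 near DCUN1D4, 6.24 near PCSK5, 5.80 near KLF4, 3.73 near CT45A1, 5.31 near CT45A3, 7.63 near ROCK1 at chr18:18206109 and 7.32 near ROCK1 at chr18:18395412. Most of these regions were described because of extreme ratios that enter this difference.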

How the results depend on the processing

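Of 84 values under other settings, 51 stayed within 1.5 times the reported value and 33 did not. The number of members was 896 with summits of all lists within 250 bp, 793 with lists of equal length and 3062 with the windows kept in. Centring the ratios gave 121 members higher and 408 lower in SHP1705 than in DMSO, and 360 higher and 116 lower in the combination than in SHP1705. Both shifts lie between the members' own quartiles, so centring takes away most of the difference by construction. At a 3-fold limit 3 were higher in SHP1705 than in DMSO, 104 higher and 70 lower in MG132, and 91 higher and 92 lower in the combination; against MG132 the combination was higher in 62 and lower in 88. At 1.5-fold the counts were 407 and 329 for MG132, 343 and 362 for the combination, 262 and 364 for the combination against MG132, and 8 lower against SHP1705. At a −log10 q of 10, 3 were higher in SHP1705 than in DMSO and 3 lower in the combination than in SHP1705. Settings added after seeing the data left out SHP1705 or kept only members with summits within 100 bp. Without SHP1705, 324 of 1987 regions were higher and 287 lower in MG132, and 295 higher and 314 lower in the combination. Against MG132 the combination was then higher in 236 and lower in 315. With summits within 100 bp, 88 of 561 were higher and 46 lower in MG132, and 71 and 53 in the combination. Summits lay within 50 bp in 279 members, and within 100 bp in 886 regions without SHP1705. No paired analysis was possible because each treatment has 1 library.

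Pileups of members started at 29 fragments in SHP1705 and at 13, 14 and 17 in DMSO, MG132 and the combination. The placement of fragments from repeated sequence was not measured.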
